A study of Homo sapiens with 6 samples.

Results

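The neurotrophin and midkine genes described here are 8 of the 17081 gene symbols in the deposited count file: the ligands BDNF, NTF3, MDK (midkine) and PTN (pleiotrophin), and the receptors NTRK2, NTRK3, NGFR and SORT1. They were taken by symbol, from a list chosen with earlier results of these data known, and all 8 were in the file. The 6 libraries came from tumours of DMS114, a human line of small cell lung cancer, grown in a sciatic nerve invasion model. Per the labels, 3 libraries represent the proximal and 3 the distal part of the invasion, here called proximal 1 to 3 and distal 1 to 3, and both groups carry the same line name, with no agent, allele or time given. The host species, the animals behind each number and any pooling are not stated in the labels, so the tests see only how much these samples vary, and that variation may be technical.

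Neurotrophins are secreted proteins that keep neurons alive and guide axon and Schwann cell growth in peripheral nerve. Each is made as a longer precursor; the mature form signals mainly through a Trk receptor kinase (BDNF through TrkB, the product of NTRK2, and NT-3, the product of NTF3, through TrkC, the product of NTRK3), while p75NTR, the product of NGFR, binds all of them. The precursors bind p75NTR together with sortilin, the product of SORT1. Midkine and pleiotrophin form a separate family of heparin-binding growth factors that act on neurite growth through proteoglycans, integrins and other cell surface receptors, and midkine is made by many carcinomas.

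The libraries held 16171106 to 26116191 counts. Distal 3 stood apart: it was the shallowest library and held by far the most skeletal muscle transcripts, with a summed level of 2630 CPM (counts per 1000000 counts of the library, scaled between libraries by the trimmed mean of M values) over 15 muscle markers, against 392 CPM in proximal 3 and at most 54.5 CPM elsewhere. The 13 Schwann cell markers summed to 80.4 to 173 CPM, highest in proximal 3 and distal 2, where MBP (myelin basic protein) had 12.3 and 11.5 CPM. Endothelial and macrophage markers were low in all libraries, at 3.68 to 8.12 and 1.43 to 5.98 CPM summed. The 8 peripheral neuron markers in the file summed to 124 to 171 CPM, highest in distal 3, but they did not move together. NEFM (82.2 CPM) and PRPH (8.61 CPM) were highest in distal 3, whereas SCN9A (1.22 CPM) and SLC18A3 (0.733 CPM) were lowest there. NEFH and RBFOX3 were second lowest in distal 3, and TAC1 and SCN10A had no counts in it. The 8 fibroblast markers summed to 4603 to 6192 CPM, lowest in distal 3, but most of that sum was COL3A1 (3725 to 5104 CPM). COL3A1, DCN and PDGFRA were lowest in distal 3, whereas COL1A1, COL1A2 and LUM were second highest there, and FBLN1 and POSTN lay in between. COL1A1 had 38.29 CPM in distal 3, against 7.699 CPM in proximal 1 and 62.25 CPM in proximal 3. Of the fixed small cell markers, SYP (synaptophysin) had 56.9 to 63.9 CPM and YAP1 167 to 187 CPM, while NCAM1 had 0.352 to 3.91 CPM. POU2F3 was at most 0.247 CPM, and NEUROD1 at 0.0462 to 0.618 CPM except in distal 3, at 6.47 CPM. In these bulk samples, fewer cells of a type and less RNA per cell cannot be told apart.

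For 5 of the 8 genes distal 3 was the highest library. The members among them that differed most between libraries were BDNF, NTF3 and NTRK2, so the 250 bases upstream of their RefSeq transcript starts (GRCh38.p14) are shown, each read 5′ to 3′ on the gene's own strand. Capitals mark the GC box, GGGCGG or its reverse complement CCGCCC, a letter pattern bound by Sp family factors. The BDNF window lies at chr11:27722031-27722280 on the minus strand and its last 28 bases are exonic in GENCODE release 29. The NTF3 window, at chr12:5431858-5432107 on the plus strand, lies inside the RefSeq span of the gene and holds no GENCODE exon. The NTRK2 window is at chr9:84669056-84669305 on the plus strand, also inside the gene's span, with 4 exonic bases.
BDNF: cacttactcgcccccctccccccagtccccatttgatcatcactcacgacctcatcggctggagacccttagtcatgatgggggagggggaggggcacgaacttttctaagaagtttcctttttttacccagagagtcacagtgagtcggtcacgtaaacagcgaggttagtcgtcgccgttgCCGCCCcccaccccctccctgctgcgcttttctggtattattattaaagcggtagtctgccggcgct
NTF3: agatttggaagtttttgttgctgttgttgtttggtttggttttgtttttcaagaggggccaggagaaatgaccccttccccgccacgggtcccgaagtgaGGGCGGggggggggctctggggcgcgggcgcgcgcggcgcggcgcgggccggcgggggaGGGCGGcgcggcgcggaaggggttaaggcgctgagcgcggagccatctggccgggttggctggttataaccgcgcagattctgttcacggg
NTRK2: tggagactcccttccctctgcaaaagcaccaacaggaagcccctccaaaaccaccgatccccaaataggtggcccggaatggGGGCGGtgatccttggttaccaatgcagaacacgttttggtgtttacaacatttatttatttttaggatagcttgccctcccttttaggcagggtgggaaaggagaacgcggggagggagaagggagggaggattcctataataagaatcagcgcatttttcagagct
BDNF and NTRK2 each held 1 GC box and NTF3 held 2, and 42.3% of 27305 RefSeq promoter windows of this length hold at least 1. None of the 3 windows held the TATA box TATAAA, the cAMP response element TGACGTCA or the E-box CACGTG on either strand, which were in 11.1%, 1.77% and 6.49% of all windows. GENCODE lists 10 transcript starts for BDNF and 5 for NTRK2, so each window shows a single start among several.

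The 8 genes covered a wide span of levels, with midkine far above the rest. Per kilobase of annotated exon, which allows levels of different genes to be compared, MDK had 66.5 to 96.6 CPM per kb across the 6 libraries, higher than 97.8% of the 16800 genes with a GENCODE length. SORT1 was next at 7.47 to 10.5, above 68.8% of genes. These 2 were separated from each other and from all other members in every library. NGFR followed at 0.358 to 0.738, NTRK2 at 0.0811 to 0.671 and BDNF at 0.0473 to 0.336 CPM per kb. Their ranges overlapped, but NGFR was above NTRK2 in 5 of 6 libraries, all but distal 3, and NTRK2 above BDNF in 5 of 6. NTF3, PTN and NTRK3 lay lowest, with means of 0.0457, 0.0442 and 0.0165 per kb, and NTF3 was above PTN in only 3 of 6 libraries. Long annotated exons that a tumour does not use lower a gene's level on this scale, and NTRK2 and NTRK3 have 20363 and 26750 exonic bases.

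**Figure D1:**
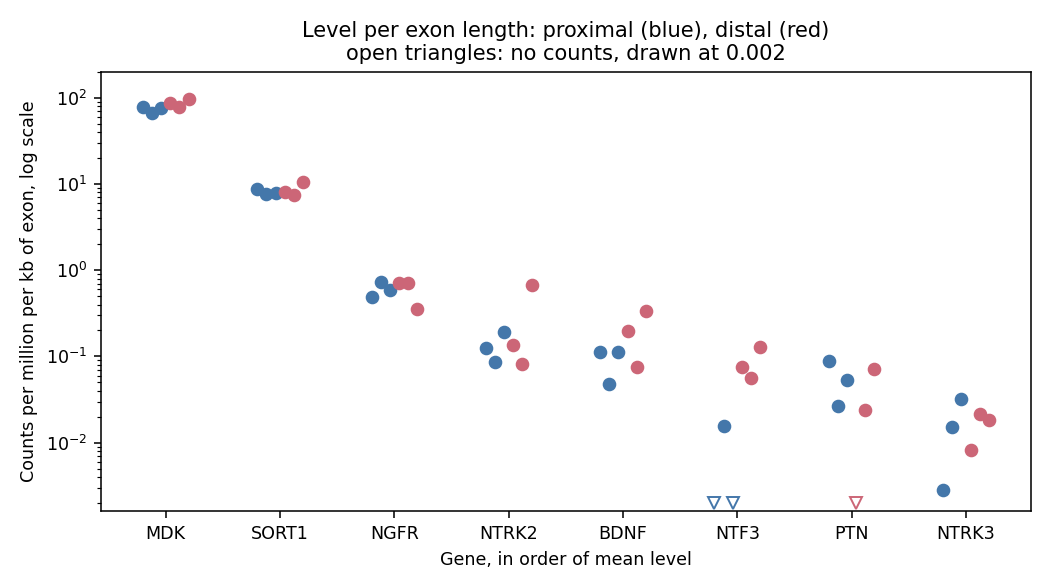
CPM per kilobase of GENCODE exon (log axis) for each gene, in order of mean level; each point is a library, proximal in blue and distal in red, and open triangles mark libraries with no counts. MDK and SORT1 stand above all others, and the ranges of the remaining neighbours overlap.

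No member differed between distal and proximal tumour by the test across all genes. Of the 8 genes, 6 had enough reads to be tested with 13382 genes in all, and the quasi-likelihood test of edgeR (Benjamini-Hochberg adjusted p under 0.05) called 0 of the 6, where it called 0% of all genes tested. All 6 had the adjusted p 0.9997. Before adjustment, 1 member, MDK, had a p under 0.05, against 1.33% of all genes (178). DESeq2 called 1 gene in all (0.00747%), EDIL3, and no member. None of the 6 had groups that did not overlap, against 6.28% of all genes tested. The values below are therefore levels and estimated differences, none of which passed the test.

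Midkine was abundant in every tumour and somewhat higher on average in the distal ones. MDK (chromosome 11, 46380784 to 46383837, plus strand) had 171.8, 147 and 164 CPM in proximal 1 to 3 and 191, 170.5 and 209 CPM in distal 1 to 3. The proximal and distal means were 161 ± 12.5 and 190.4 ± 19.5 CPM (SD, n = 3 each). The groups overlapped through a single pair, proximal 1 and distal 2, whose counting intervals (167 to 177 and 165 to 176 CPM) also overlapped. With library totals alone or upper-quartile scaling the groups of MDK did not overlap, as for 6.28% and 6.41% of all genes tested. Its log2 fold change (distal minus proximal, as for all fold changes here) was 0.24 (SE 0.10, 95% interval 0.02 to 0.46). The p of MDK was 0.0326 before and 0.9997 after adjustment (edgeR). Permuting its log2(CPM + 0.1) values exactly, two-sided, gave p = 0.2, where 0.1 is the smallest value possible with 3 libraries a group. With distal 3 left out the log2 fold change of MDK was 0.17, and without distal 2 it was 0.31. MDK had the narrowest interval of the tested members, and like those of SORT1 and NGFR it lay within 2-fold in either direction.

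Pleiotrophin, the other member of the midkine family, was close to the limit of detection. PTN (chromosome 7, 137227341 to 137343733, minus strand) had 4, 1 and 2 counts in the proximal and 0, 1 and 2 counts in the distal libraries, or 0 to 0.155 CPM. A library with no count allows up to 3 counts, which is 0.132 CPM in distal 1. PTN did not pass the filter on low counts. Its pooled counts of 7 in proximal and 3 in distal tumour gave a ratio of 0.472 with a counting interval of 0.0788 to 2.07, so no difference was detectable at this depth. Intervals from counts cover counting error only.

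**Figure D2:**
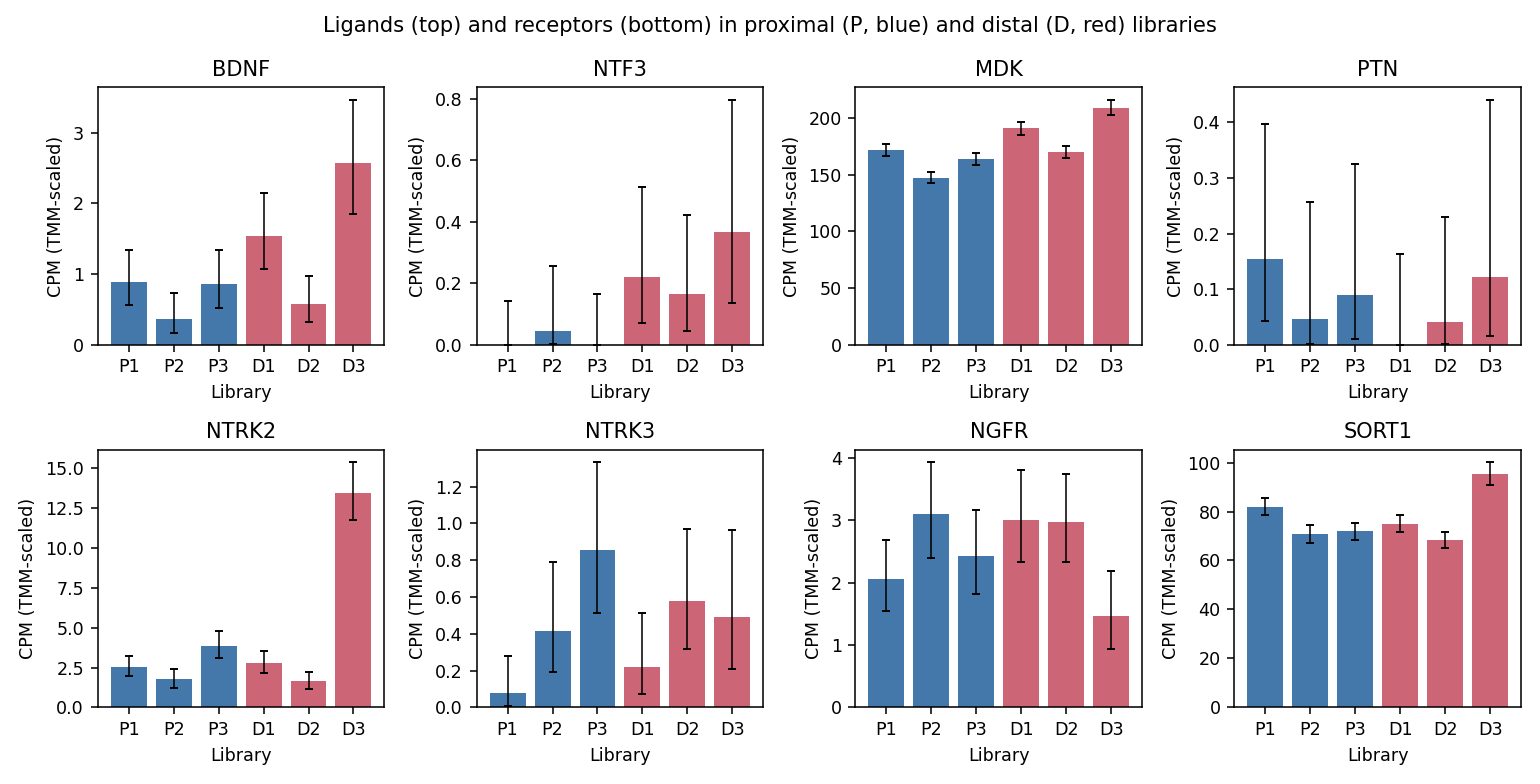
CPM of the 4 ligands (top) and 4 receptors (bottom) in proximal (P, blue) and distal (D, red) libraries, with exact Poisson 95% intervals as error bars; each panel has its own linear axis from 0. NTRK2 and BDNF peak in distal 3, NGFR is lowest there, and NTF3 has at most 1 count in any proximal library.

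BDNF, the ligand of TrkB, was read at a low level and varied as much within groups as between them. BDNF (chromosome 11, 27654893 to 27722030, minus strand) had 23, 8 and 19 counts in proximal 1 to 3 and 35, 14 and 42 in distal 1 to 3. In CPM these were 0.89, 0.369 and 0.853 against 1.54, 0.577 and 2.56. Distal 3 and distal 1 were the highest libraries, while distal 2 lay below proximal 1 and proximal 3. BDNF averaged 0.704 ± 0.290 CPM in the proximal and 1.56 ± 0.994 CPM in the distal group (SD, n = 3 each). The fitted difference was 1.11 on the log2 scale (SE 0.57, 95% interval -0.16 to 2.39), with an unadjusted p of 0.080 and 0.9997 after adjustment (edgeR). It was 0.57 without distal 3 and 0.72 without both distal 3 and proximal 3. In GENCODE, 9.06% of BDNF's exonic bases overlap those of the antisense gene BDNF-AS. Since the strand setting is not given, some of these reads could be of the antisense RNA.

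NT-3 reads were few, and nearly all of them came from distal tumours. NTF3 (chromosome 12, 5430332 to 5495299, plus strand) had 0, 1 and 0 counts in proximal 1 to 3 and 5, 4 and 6 in distal 1 to 3. Each distal library was thus above each proximal one. NTF3 did not pass the filter on low counts, and among the 3699 genes that did not pass, 3% had all distal above all proximal libraries. The pooled counts, 1 in proximal and 15 in distal tumour, gave a ratio of 16.5 with a counting interval of 2.54 to 696. That interval covers counting error in the pooled libraries and not the spread between tumours. In a fit of all genes without the filter the adjusted p of NTF3 was 0.999 (edgeR), and with DESeq2 its p was 0.0358 before and 0.9996 after adjustment. An exact permutation test (two-sided) gave p = 0.1, the smallest that 3 against 3 libraries allow. The highest level, in distal 3, was 0.366 CPM.

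NTF4, a second TrkB ligand, was also low, with 9, 1 and 7 counts in proximal 1 to 3 and 3, 7 and 10 in distal 1 to 3. Its groups overlapped, and it did not pass the filter on low counts.

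Among the receptors, NTRK2 was set apart by distal 3. NTRK2 (chromosome 9, 84668522 to 85027054, plus strand) had 66, 38 and 86 counts in proximal 1 to 3 and 63, 40 and 221 in distal 1 to 3. In CPM these were 2.55, 1.75 and 3.86 against 2.78, 1.65 and 13.5. Distal 3 was 5.29-fold above the median of the other 5 libraries, and its counting interval (11.8 to 15.4 CPM) lay above all of theirs. Proximal 3 was second, and distal 1 and distal 2 both lay below it. NTRK2 averaged 2.72 ± 1.06 CPM in the proximal and 5.97 ± 6.54 CPM in the distal group (SD, n = 3 each), so the spread between distal libraries exceeded their mean. The log2 fold change of NTRK2 was 1.11 (SE 0.86, 95% interval -1.05 to 3.28), with an adjusted p of 0.9997 (edgeR). Without distal 3 it was -0.30, and without both distal 3 and proximal 3 it was 0.03. Its within-group coefficient of variation in the fit was 69.0%, against 30.3% on the trend for genes of its abundance, whereas that of MDK (10.1% against 10.8%) and SORT1 (13.4% against 13.4%) lay on the trend.

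Distal 3 and proximal 3, the highest libraries for NTRK2, also held the most muscle transcripts. All 15 muscle markers were highest in distal 3, from 0.794 CPM for MB (myoglobin) to 398 CPM for MYH1, a fast myosin heavy chain, and none was at 0 in all libraries. In proximal 1 and distal 1 ACTA1, the skeletal actin, was at 0.89 and 0.661 CPM and NTRK2 at 2.55 and 2.78 CPM. In proximal 2 and distal 2 ACTA1 was higher, at 6.42 and 3.38 CPM, and NTRK2 lower, at 1.755 and 1.65 CPM. The part of muscle RNA in the NTRK2 level of distal 3 was not tested. By the smallest root mean square difference of centred log2 levels over the 6 libraries, the genes most like NTRK2 among 10732 genes averaging 5 CPM or more were GDF6, a bone morphogenetic protein family ligand (0.22), MBNL2, an RNA splicing regulator (0.29), and FN1, fibronectin (0.32). Like NTRK2, FN1 and MBNL2 were highest in distal 3 (46.5 and 48.3 CPM) and second in proximal 3 (17.0 and 22.2 CPM). GDF6 was also highest in distal 3 (22.7 CPM), but second in distal 1 (5.64 CPM, against 5.03 CPM in proximal 3). The gene count does not separate full-length TrkB from the truncated forms without a kinase domain.

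**Figure D3:**
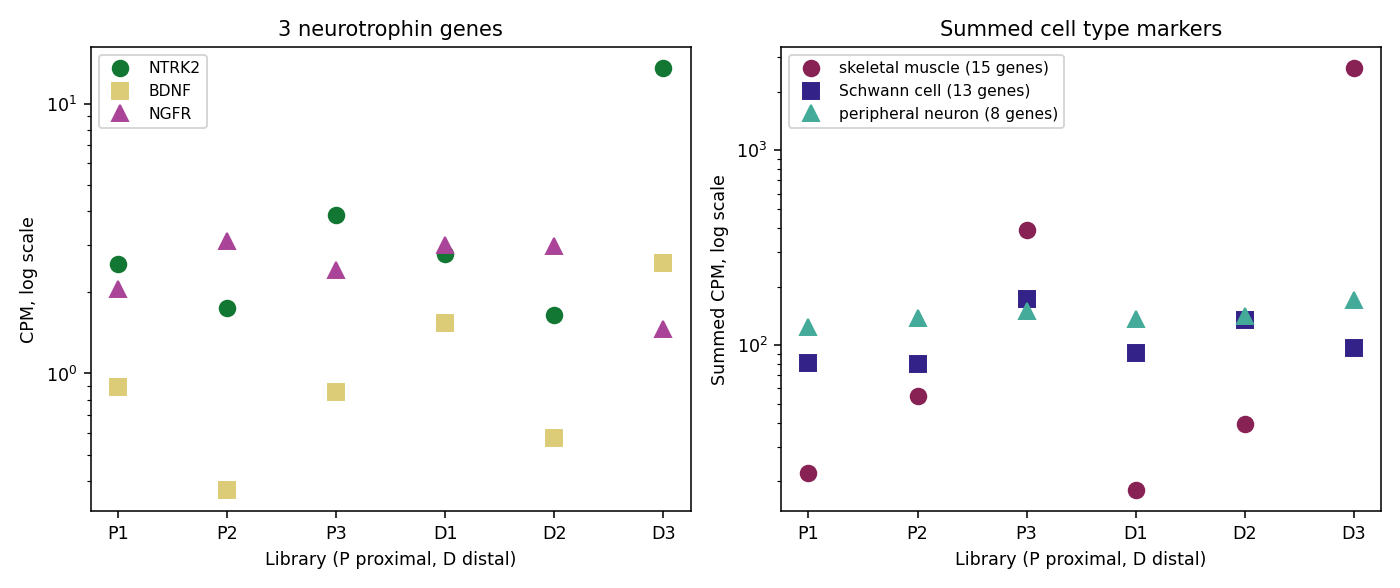
CPM of NTRK2, BDNF and NGFR (left, log axis) beside summed CPM of skeletal muscle, Schwann cell and peripheral neuron markers (right, log axis) in each proximal (P) and distal (D) library. Distal 3 is highest for NTRK2, BDNF and the muscle markers and lowest for NGFR, while the Schwann cell markers are highest in proximal 3.

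NTRK3 was at the edge of detection and had no stable direction. NTRK3 (chromosome 15, 87859751 to 88256739, minus strand) had 2, 9 and 19 counts in proximal 1 to 3 and 5, 14 and 8 in distal 1 to 3. The lowest and the highest library, proximal 1 at 0.0774 CPM and proximal 3 at 0.853 CPM, both belonged to the proximal group. On the log2 scale the fitted difference was -0.05 (SE 0.75, 95% interval -1.72 to 1.62), with an adjusted p of 0.9997 (edgeR), and it was 0.82 without proximal 3 and -0.57 without proximal 1.

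The p75 receptor gene was read at a few CPM in both regions. NGFR (chromosome 17, 49495293 to 49515008, plus strand) had 53, 67 and 54 counts in proximal 1 to 3 and 68, 72 and 24 in distal 1 to 3. In CPM these were 2.05, 3.09 and 2.43 against 3.00, 2.97 and 1.47. Distal 3 was the lowest library, opposite to NTRK2 and BDNF, and the other 5 lay between 2.05 and 3.09 CPM. The log2 fold change of NGFR was -0.02 (SE 0.35, 95% interval -0.80 to 0.77), with an adjusted p of 0.9997 (edgeR), and it was 0.24 without distal 3 and 0.15 without proximal 2. p75NTR is also made by Schwann cells. In proximal 3 and distal 2, the libraries with the most Schwann cell transcripts, MBP was at 12.3 and 11.5 CPM and NGFR at 2.43 and 2.97 CPM. In proximal 1 and proximal 2, MBP was at 0.387 and 0.739 CPM and NGFR at 2.05 and 3.09 CPM. The part of Schwann cell RNA in the NGFR level was not tested. Of NGFR's exonic bases, 22.3% and 4.87% overlap unnamed transcripts on the opposite strand. The genes most like NGFR over the 6 libraries were APOBEC3F, an antiviral cytidine deaminase (a root mean square log2 difference of 0.11), IGSF1 (0.11) and HAGHL (0.12).

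SORT1 was well expressed, and distal 3 stood above all the others. SORT1 (chromosome 1, 109309575 to 109397918, minus strand) had 81.9, 70.8 and 71.9 CPM in proximal 1 to 3 and 75, 68.3 and 95.4 CPM in distal 1 to 3. Its counting interval in distal 3, 90.7 to 100.2 CPM, did not reach that of any other library. The interval in proximal 1, 78.4 to 85.4 CPM, lay above those in proximal 2, proximal 3 and distal 2. The means were 74.8 ± 6.11 and 79.6 ± 14.1 CPM (SD, n = 3 each). SORT1 had a log2 fold change of 0.09 (SE 0.13, 95% interval -0.20 to 0.37), with an adjusted p of 0.9997 (edgeR), and it was -0.06 without distal 3. Its relatives SORL1 and SORCS2 were lower, at 4.98 to 13.7 and 0.969 to 3.46 CPM. The log2 fold change of SORL1 was -0.08 (SE 0.33), or -0.51 without distal 3 and 0.21 without distal 1, and SORCS2 one of -0.35 (SE 0.49), or 0.34 without proximal 2. SORCS1 and SORCS3 had too few counts to test.

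**Figure D4:**
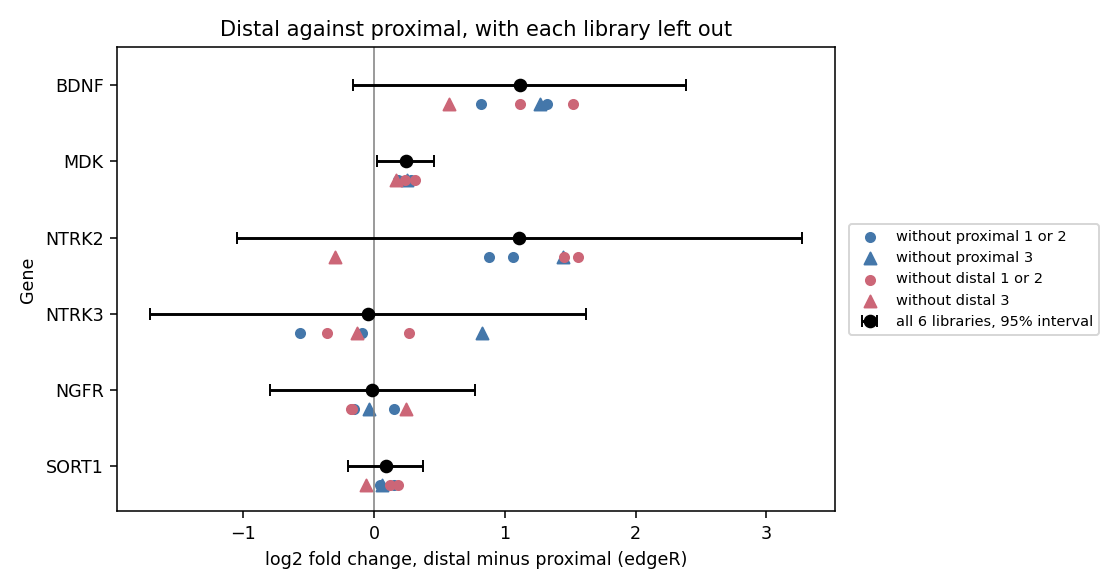
Log2 fold change, distal minus proximal, of the 6 tested genes: black points with 95% intervals from all 6 libraries, and below each the value with 1 library left out (blue proximal, red distal, triangles for replicate 3). The interval of MDK is narrow and lies just above 0, and the value of NTRK2 falls below 0 when distal 3 is left out.

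Distal 3 was the highest library for 4 of the 6 tested members, BDNF, NTRK2, SORT1 and MDK, and for NTF3 below the filter. It was the highest library for 26.9% of all genes tested, more than any other library. MDK and BDNF were second highest in distal 1. The 3 genes most like MDK over the 6 libraries were PPIP5K1, an inositol phosphate kinase, FAM222A and PROS1, protein S of blood coagulation (root mean square log2 differences of 0.04, 0.04 and 0.04).

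Genes that bind, cut or relay these ligands were then counted by list, beside all genes tested, of which 6900 were higher and 6482 lower in distal (median log2 fold change 0.01). No gene of any list was called. Of the neurotrophins and their receptors 5 of 8 were tested, 2 higher and 3 lower (median -0.02, or 0.82 without proximal 3). Of the sortilin family 1 of 3 tested genes was higher and 2 lower (median -0.08, or -0.51 without distal 3). In the list of midkine and pleiotrophin receptors, 8 of 18 tested genes were higher and 10 lower, with a median of -0.02. In 3 of the 18 all distal libraries lay above all proximal ones, against 3.2% of all genes tested, and the same 3 had an unadjusted p under 0.05. ITGA6, an integrin subunit through which midkine can act, had 25.4, 21.8 and 23.3 CPM in proximal and 30.3, 29.8 and 30.7 CPM in distal 1 to 3, a log2 fold change of 0.36 (SE 0.10), and stayed between 0.31 and 0.42 with any library left out. ITGA4, also an integrin subunit, was low, at 0.387, 0.369 and 0.135 against 0.925, 0.577 and 0.855 CPM, a log2 fold change of 1.37 (SE 0.53). GPC2 (glypican-2, a heparan sulfate proteoglycan of developing neurons), named after its values were seen, had 23.1, 23.6 and 23.8 against 27.7, 25.8 and 42.8 CPM. The log2 fold change of GPC2 was 0.45 (SE 0.18), or 0.18 without distal 3. All 3 had the same edgeR adjusted p, 0.9997.

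Levels of the other midkine receptors ran from a few counts to over 1000 CPM, and none of them had groups that did not overlap. NCL (nucleolin, which binds midkine at the cell surface) had 1340 to 1496 CPM, LRP1, an endocytic receptor, 146.5 to 210.0 CPM, and ITGB1, the shared integrin beta subunit, 556 to 873 CPM. Of the syndecans, the transmembrane heparan sulfate proteoglycans, SDC1 had 63.9 to 72.2 CPM and SDC3 57.5 to 90.3 CPM, while SDC2 had 3.29 to 4.62 CPM. ITGAV, the alpha-v integrin subunit, had 103 CPM in proximal 2 and 197 to 370.5 CPM elsewhere. The kinase ALK had at most 2 counts and the phosphatase PTPRZ1 at most 6 counts in any library, and neither was tested, while LTK, the relative of ALK, had at least 20.8 CPM.

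Partners of p75NTR were split in direction, with 6 of 13 higher and 7 lower and a median log2 fold change of -0.03. BEX3, which binds the p75NTR intracellular part, had 345 to 516 CPM and a log2 fold change of 0.14 (SE 0.13), or -0.01 without distal 3. MAGED1, another p75NTR binding protein, had 291 to 352.5 CPM. RTN4R, the Nogo receptor, which forms a complex with p75NTR and LINGO1, had a log2 fold change of 0.51 (SE 0.33) from 1.39 to 2.99 CPM, or 0.32 without proximal 1 and 0.77 without proximal 3. TNFRSF19, a p75NTR relative that can stand in for it in that complex, named after its values were seen, had 3.37 CPM in proximal 2 and 21.6 to 56.9 CPM elsewhere. Without proximal 2 its log2 fold change of 0.69 (SE 0.94) was 0.18.

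Among 6 tested genes of proneurotrophin processing, 3 were higher and 3 lower, with a median of -0.04. In 2 of the 6, FURIN and CPE, all distal libraries lay below all proximal ones, against 3.09% of all genes tested. FURIN, the convertase that cuts the precursors in the secretory pathway, had 36.1, 34.1 and 39.2 CPM in proximal and 33.1, 31.8 and 33.2 CPM in distal 1 to 3, a log2 fold change of -0.16 (SE 0.10), or -0.10 without proximal 3. CPE (carboxypeptidase E, which helps sort BDNF precursor into granules) had 21.7, 26.1 and 21.9 against 17.8, 21.4 and 18.7 CPM. Its log2 fold change was -0.27 (SE 0.13), or -0.18 without proximal 2. Both had the edgeR adjusted p 0.9997.

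Trk adaptors and effectors were lower for 12 of 19 and higher for 7, with a median of -0.05. In 3 of the 19 the groups did not overlap, against 6.28% of all genes tested: FRS3, an adaptor, had all distal libraries above, and GRB2 and PTPN11 all distal libraries below the proximal ones. GRB2 had 138.9, 139 and 140.3 CPM in proximal and 126, 136 and 127 CPM in distal 1 to 3, a log2 fold change of -0.10 (SE 0.07). GRB2, PLCG1, FRS2 and PTPN11, which carry the signal from active Trk receptors, were at 126 to 140.3 CPM, 127 to 167 CPM, 117 to 141 CPM and 299.8 to 339 CPM. SHC3, a neuronal adaptor, was low at 0.155 to 1.16 CPM, with a log2 fold change of 1.26 (SE 0.63) that was 0.84 without distal 3 and 2.12 without proximal 2. CRKL had a log2 fold change of -0.14 (SE 0.10), or -0.04 without proximal 2. Of 10 tested genes that Trk signalling can induce, 6 were higher and 4 lower, with a median of 0.03. FOS had 13.1 CPM in distal 3 and 3.70 to 4.90 CPM elsewhere, and its log2 fold change of 0.76 (SE 0.45) was 0.02 without distal 3. SPRY2, a feedback inhibitor of receptor kinases, had 5.07 CPM in distal 3 and 1.03 to 2.07 CPM elsewhere, and its log2 fold change of 0.74 (SE 0.59) was -0.26 without distal 3. KIDINS220 was in both the p75NTR partner and the Trk adaptor list.

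**Figure D5:**
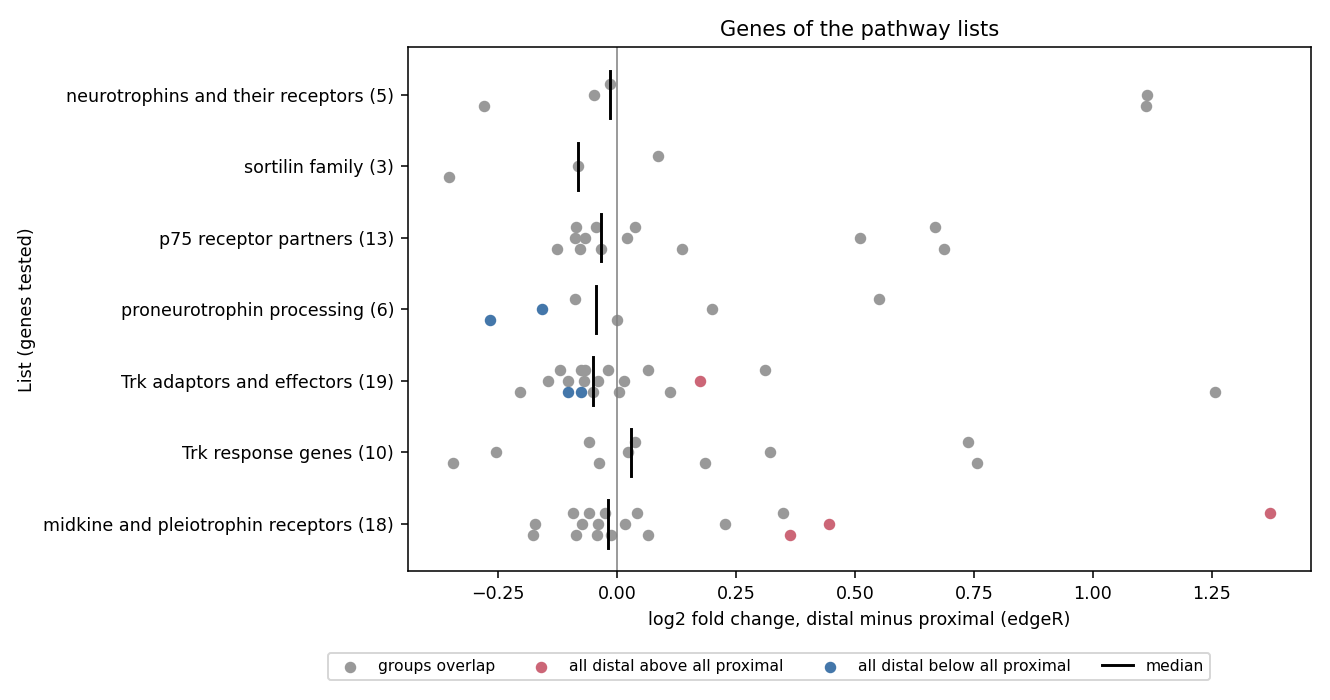
Log2 fold change, distal minus proximal, of each tested gene of the 7 lists, with the median as a black bar; red points had all distal above all proximal libraries and blue points all below. The medians lie between -0.08 and 0.03, and the red points at 0.36, 0.45 and 1.37 in the bottom list are ITGA6, GPC2 and ITGA4.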

How the data were processed

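RNA was measured in 3 proximal and 3 distal DMS114 tumour samples by poly(A) RNA-seq. The authors deposited raw counts per gene symbol. The submitters' processing notes name featureCounts 2.0.1, STAR 2.7.3a, Trimmomatic 0.39, bcl2fastq, DESeq2 and the build GRCh38. They do not state the annotation, strandedness or treatment of host reads, so a count could include host reads that match human genes. Counts were tested in R 4.3.3 with edgeR 4.0.16 (expression filter by group, TMM, robust quasi-likelihood, Benjamini-Hochberg at 0.05). Standard errors were derived from the log2 fold change and the F statistic (|log2 fold change|/√F), and CPM use TMM-scaled library sizes of the tested genes. Alternatives were RLE, upper-quartile or no scaling, other low-count filters, DESeq2 1.42.0, limma-voom (limma 3.58.1), a replicate block, each library left out and, added after seeing the data, proximal 3 and distal 3 left out together.

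Exon lengths came from GENCODE release 29 (16800 of 17081 symbols), and positions and promoters from RefSeq GRCh38.p14; all 8 members matched the gene table and 6 the promoter table (MDK and NGFR did not). Levels per kb use library totals. The members and lists were chosen with earlier results of these data known. Named besides the members are the 2 tested genes of lowest p in each list and, for members with at least 10 counts in every library and a log2 range above 0.5, the 3 genes of most similar profile. Other list genes in the text were picked after their values were seen, for their role or level. On simulated counts for 13382 genes, 69.5% of genes altered 2-fold and 28.6% of those altered 1.5-fold were called, with 57 of 65387 unaltered genes. The altered genes were drawn at random from all levels, so these shares are averages and do not give the power for any single member. The same runs also held genes altered 4-fold and 8-fold, and the adjustment is milder when many genes pass. In the data no gene passed, so these shares may be too high for them. A few genes of the lists, which the naming rule could have given, are not reported here. Plots used matplotlib.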

Additional observations from a re-analysis of the deposited data

How the results depend on the processing

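No member was called under any of the alternatives, and their adjusted p lay between 0.9979 and 1. Over all genes, DESeq2 and the fit without distal 1 each called 1 gene, EDIL3, and the other alternatives 0. MDK and BDNF kept a positive value under every alternative in which they were tested, MDK from 0.17 to 0.31 and BDNF from 0.57 to 1.52. The number of tested members whose groups did not overlap was 0, but 1 (MDK) with upper-quartile scaling and with library totals alone, where 6.41% and 6.28% of all genes tested did not overlap. With 1 library left out it was 0 to 2 (MDK without proximal 1, MDK and BDNF without distal 2), where 20.1% and 15.1% of all genes did not overlap.

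Signs turned for values near 0 or carried by 1 library, and the cause was not tested. With 1 library, or proximal 3 and distal 3 together, left out the log2 fold change ran from -0.57 to 0.82 for NTRK3, -0.30 to 1.56 for NTRK2, -0.18 to 0.24 for NGFR, -0.092 to 0.18 for SORT1, -0.59 to 0.21 for SORL1, -0.77 to 0.34 for SORCS2, -0.10 to 0.21 for BEX3 and -0.26 to 1.12 for SPRY2. The turned values were 0.15 for NGFR, 0.06 for SORL1 and 0.34 for SORCS2 without proximal 2; 0.82 for NTRK3 without proximal 3; 0.27 for NTRK3 and 0.21 for SORL1 without distal 1; and -0.30 for NTRK2, 0.24 for NGFR, -0.06 for SORT1, -0.01 for BEX3 and -0.26 for SPRY2 without distal 3. Without both proximal 3 and distal 3 they were 0.22 for NGFR, -0.092 for SORT1 and -0.10 for BEX3, and limma-voom gave 0.38 for NTRK3.

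With the replicate number as a block, 0 genes and 0 members were called, as without it, and NTRK3 was at 0.16. Same-numbered samples deviated with correlations of 0.56, -0.13 and 0.32 across genes, and not every sample correlated best with its own number. The labels do not say what the number marks, and it was not used as a pairing. Depth limits NTF3, PTN and NTRK3, each with at most 19 counts in a library.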
